A study of Mus musculus with 12 samples.

Results

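The genes of the D-type cyclins and of the kinases they activate were followed through the DP, iNKT and γδ T cells of the mouse thymus. The 4 genes, Ccnd2, Ccnd3, Cdk4 and Cdk6, were chosen by name and not by their values, and all 4 had a row among the 11815 genes of the expression table. Ccnd1, the third D-type cyclin gene, is not analysed here. RNA was sequenced from sorted mouse thymocytes in 11 libraries of 6 groups. There was 1 WT iNKT library, and 2 each of L-DKO iNKT, of DP cells (WT and L-DKO) and of γδ cells (WT and Id3KO). DP cells were sorted as CD4+ CD8+, with exclusion of TCRγδ+ cells in WT and, by the label, of CD1d tetramer-binding cells in L-DKO. The gate was TCRγδ and CD3 for γδ T cells, and TCRβ with the CD1d tetramer for iNKT cells. L-DKO mice were Id2 f/f Id3 f/f LckCre+, in which the Lck promoter drives Cre in developing T cells, Id3KO mice were Id3-/-, and WT mice carried neither deletion. Every library pooled thymi of 2 to 3 mice aged 4 to 5 weeks on a C57BL/6 or mixed C57BL/6 x 129 background. The p-values below therefore measure the spread between pools.

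D-type cyclins bind and activate CDK4 and CDK6 when mitogens or receptor signals reach a resting cell. The active kinases phosphorylate RB and its relatives, which releases E2F factors to transcribe genes of DNA replication, and inhibitors of the INK4 and CIP/KIP families oppose them. In the thymus cyclin D3 is known for the expansion of cells that have passed β-selection, while cyclin D2 is known for its induction by cytokine and antigen receptor signals. Id2 and Id3 keep E proteins off DNA, and E proteins bind the E-box, written CANNTG.

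The deletions were examined in every library first. Id3 was at 53.8 and 36.9 FPKM in WT DP and at 6.16 and 3.09 in L-DKO DP, at 157 and 96.7 in WT γδ and at 3.95 and 3.07 in Id3KO γδ. In the libraries with the L-DKO iNKT label it was at 30.5 and 22.8 FPKM against 42.4 in WT iNKT, while Id2 was listed at 0 and at 0.199 FPKM against 553. The label is therefore borne by Id2 and not by Id3 at the gene level, and they are called by that label throughout. The 4 measured iNKT markers summed to 699 FPKM in WT iNKT but to 117 and 113 in these libraries, against 124 to 358 in γδ and at most 7.85 in DP. Of these, Zbtb16, a transcription factor of innate-like T cells, was at 88.7 FPKM in WT iNKT and at 53.4 and 68.6 in these libraries, below its 171 and 135 in Id3KO γδ. The other 3 were much lower than in WT iNKT, with Cxcr6 at 5.24 and 7.33 FPKM against 199, Cd44 at 2.74 and 17.97 against 99.3, and Il2rb at 55.7 and 18.7 against 312. The 4 measured γδ markers summed to 860.4 to 1401 FPKM in γδ libraries, to 498 in WT iNKT and to 1.40 to 33.3 in the other libraries. Summed FPKM ran from 498489 to 1020310 per library, of which 30.2% to 61.6% lay in predicted genes, receptor segments and small RNA. Sequencing depth is unknown. Far fewer WT than mutant cells were sorted, so cell input and genotype cannot be told apart.

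The regulatory sequence of the members was examined for E-boxes because the deleted genes control the factors that bind them. RefSeq promoter windows on GRCm38.p6 matched 3 of the 4 genes: Cdk4, Cdk6 and, with 2 start sites, Ccnd3. The 250 bases before each start site are printed, with every CANNTG, which reads the same on both strands, in capitals. All matches in these windows were CACGTG, the form of the E-box that MYC family factors bind. Whether E proteins bind this form was not tested.
Cdk4 (chr10:127063285-127063534, + strand): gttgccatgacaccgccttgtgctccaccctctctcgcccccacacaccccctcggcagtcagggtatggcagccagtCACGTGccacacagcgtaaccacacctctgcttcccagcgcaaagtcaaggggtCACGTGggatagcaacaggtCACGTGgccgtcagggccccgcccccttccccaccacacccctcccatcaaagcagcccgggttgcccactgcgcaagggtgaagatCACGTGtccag
Cdk6 (chr5:3343643-3343892, + strand): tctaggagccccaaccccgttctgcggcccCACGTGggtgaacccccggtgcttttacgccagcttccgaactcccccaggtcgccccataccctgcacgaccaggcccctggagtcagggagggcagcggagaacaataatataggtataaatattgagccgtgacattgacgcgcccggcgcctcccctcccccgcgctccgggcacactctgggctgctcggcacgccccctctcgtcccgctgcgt
Ccnd3 (chr17:47504801-47505050, + strand): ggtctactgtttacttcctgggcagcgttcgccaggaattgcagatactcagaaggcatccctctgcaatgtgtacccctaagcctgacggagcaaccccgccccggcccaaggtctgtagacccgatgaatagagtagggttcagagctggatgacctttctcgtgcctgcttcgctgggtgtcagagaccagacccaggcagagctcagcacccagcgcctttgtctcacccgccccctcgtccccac
Ccnd3 (chr17:47593217-47593466, + strand): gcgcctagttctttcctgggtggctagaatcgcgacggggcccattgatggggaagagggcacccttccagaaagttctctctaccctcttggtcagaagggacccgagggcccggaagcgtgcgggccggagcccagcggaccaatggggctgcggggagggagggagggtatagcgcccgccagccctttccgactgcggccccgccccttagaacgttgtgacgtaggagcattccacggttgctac
The Cdk4 window held 4 copies of CACGTG, and 0.0213% of 32851 windows of this length hold as many or more. The Cdk6 window held 1 copy, and 6.02% of windows hold at least 1. Neither Ccnd3 window held a CANNTG, while 66.2% of all windows do. A match is a run of letters and not a shown binding site, and its absence says only that these letters are not in this window.

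Ccnd2, which encodes cyclin D2, separated DP cells from iNKT and γδ cells (chromosome 6, 127125162 to 127152188). It was at 1.78 and 1.10 FPKM in WT DP and at 1.36 and 1.00 in L-DKO DP. WT iNKT stood at 159.7 FPKM, the libraries with the L-DKO iNKT label at 46.6 and 101, WT γδ at 103 and 71.1, and Id3KO γδ at 124 and 54.8. Every iNKT and γδ library was thus above every DP library, and the iNKT and γδ groups overlapped one another except for WT iNKT, which was the highest library. The mean FPKM was 111 times higher in WT iNKT than in WT DP and 60.4 times higher in WT γδ. On the log2(FPKM + 1) scale, which understates changes of low genes, the difference was 6.05 ± 0.57 (SE, limma adjusted p = 0.000551) for WT iNKT and 5.16 ± 0.46 (adjusted p = 0.000567) for WT γδ. Ccnd2 was also higher in the libraries with the L-DKO iNKT label than in L-DKO DP, by 5.00 ± 0.46 (adjusted p = 0.00034). In the order of group means the one step between neighbours past the threshold was that from the libraries with the L-DKO iNKT label down to WT DP (4.85 ± 0.46, adjusted p = 0.000297, a comparison in which 29.5% of all genes were called), and the other 4 steps were 0.05 to 0.89 with adjusted p of 0.451 to 0.952. The lncRNA gene 9330179D12Rik overlaps Ccnd2 by 2800 bases in RefSeq, and since it is not given whether counting used strand, reads there cannot be assigned with certainty.

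Ccnd3, which encodes cyclin D3, had the reverse pattern (chromosome 17, 47505051 to 47599689). It was at 579 and 653 FPKM in WT DP and at 739 and 689.6 in L-DKO DP. WT γδ had 217 and 229.9 FPKM, WT iNKT 211, the libraries with the L-DKO iNKT label 159.6 and 195, and Id3KO γδ 95.8 and 92.1. The 4 DP libraries were the highest and the 2 Id3KO γδ libraries the lowest, with no overlap on either side. Ccnd3 was lower in WT iNKT than in WT DP by a log2 difference of -1.54 ± 0.21 (adjusted p = 0.00181) and in WT γδ at -1.46 ± 0.17 (adjusted p = 0.00133), with mean FPKM 2.92 and 2.76 times lower. It was lower in the libraries with the L-DKO iNKT label than in L-DKO DP, at a log2 difference of -2.01 ± 0.17 (adjusted p = 0.000217). Along the order of means, the steps from WT DP to WT γδ and from the libraries with the L-DKO iNKT label to Id3KO γδ passed the test. The latter was 0.90 ± 0.17 (adjusted p = 0.0304) and was lost without either Id3KO γδ library (0.0784 and 0.0984), either L-DKO DP library (0.0739 for each), either WT DP library (0.0518 for each) or L-DKO iNKT library b (0.1). It was also lost after quantile normalization (0.0535) and when those groups were fitted alone (0.229). The steps from WT γδ to WT iNKT (0.08 ± 0.21, adjusted p = 0.868) and from WT iNKT to the libraries with the L-DKO iNKT label (0.26 ± 0.21, 0.605) did not pass. WT γδ and the libraries with the L-DKO iNKT label did not overlap. The difference of the latter from WT γδ did not pass (-0.34 ± 0.17, limma adjusted p = 0.256). Bysl, which overlaps the end of Ccnd3 by 359 bases, had 6.19 to 18.4 FPKM in all libraries.

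**Figure D1:**
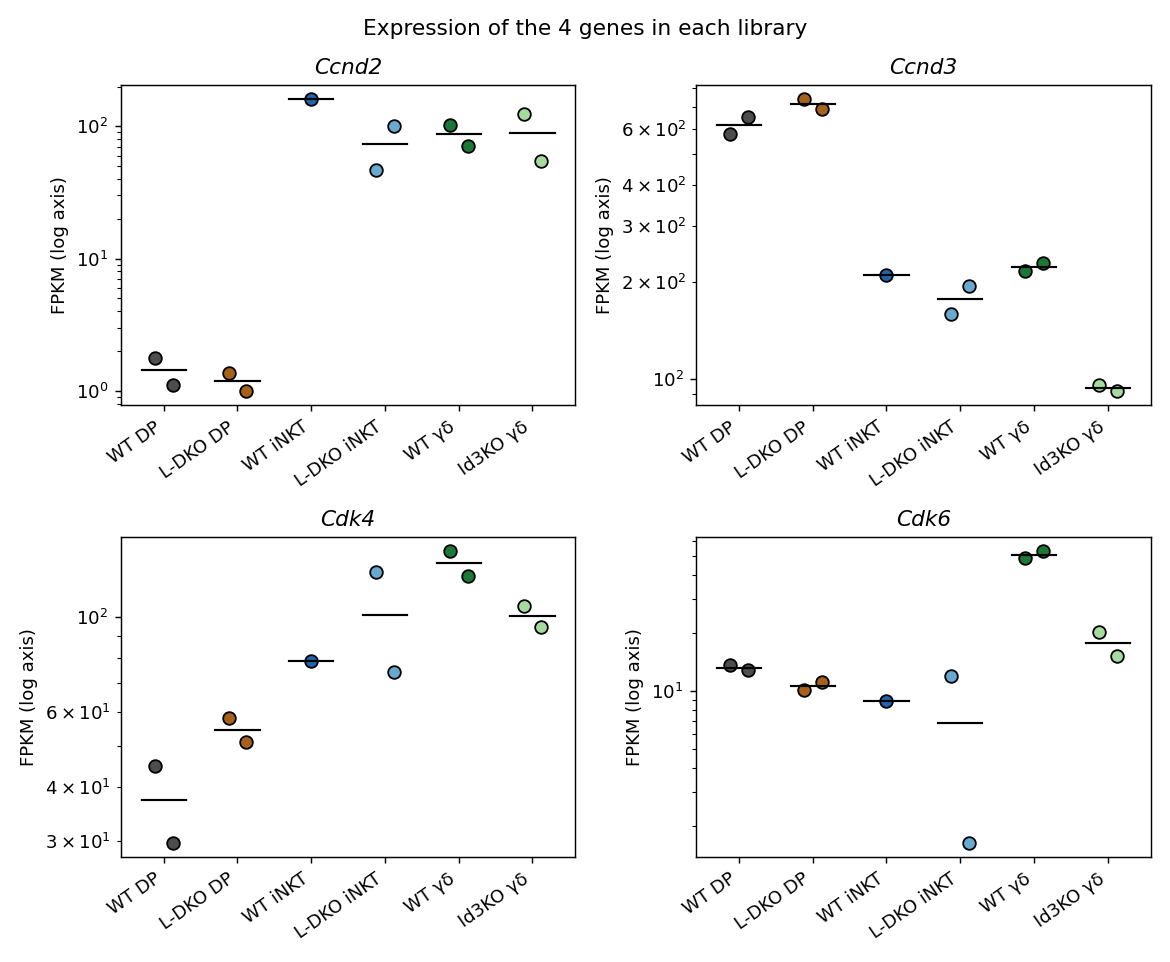
FPKM (log axis, a different range in each panel) of Ccnd2, Ccnd3, Cdk4 and Cdk6 in each of 11 libraries, by group. Points are libraries and bars are group means. Ccnd2 lies at 1.00 to 1.78 FPKM in DP and at 46.6 to 159.7 elsewhere, and Ccnd3 is highest in DP.

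The makeup of the cyclin pair, taken as the ratio of FPKM within a library, is unaffected by scaling a library and is given without a test. Ccnd3 exceeded Ccnd2 by 325 and 592 times in WT DP and by 541 and 687 times in L-DKO DP. The ratio was 1.32 in WT iNKT, 3.43 and 1.92 in the libraries with the L-DKO iNKT label, and 2.11 and 3.23 in WT γδ. In Id3KO γδ it was 0.771 and 1.68, so that Ccnd2 exceeded Ccnd3 in library a alone of all 11. DP cells thus held almost only Ccnd3 of this pair, 99.7% to 99.9% of the summed FPKM, and the other populations 43.5% to 77.4%. The summed FPKM of both cyclins was also highest in DP, at 580.4 to 740.2, against 147 to 370.4 in the iNKT and γδ libraries. In bulk samples fewer cells of a type and less RNA per cell cannot be told apart.

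**Figure D2:**
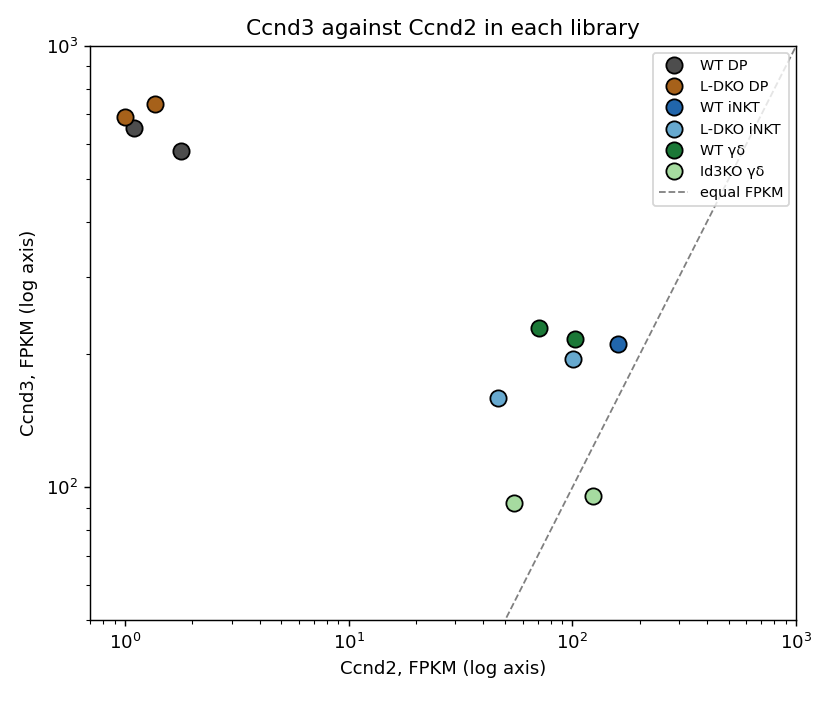
Ccnd3 (y, FPKM, log axis) against Ccnd2 (x, FPKM, log axis) in each library, coloured by group, with a dashed line where both are equal. The 4 DP libraries sit at the upper left, and Id3KO γδ library a, at a ratio of 0.771, is the one library to the right of the line.

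Cdk4 encodes the kinase that pairs with all D-type cyclins (chromosome 10, 127063535 to 127067288). It was at 44.9 and 29.7 FPKM in WT DP, 58.1 and 50.9 in L-DKO DP, 78.9 in WT iNKT, 127 and 74.2 in the libraries with the L-DKO iNKT label, 142 and 124 in WT γδ, and 106 and 94.6 in Id3KO γδ. All DP libraries were below all others, as for Ccnd2, but the steps were small. Cdk4 was higher in WT γδ than in WT DP by a log2 difference of 1.83 ± 0.29 (adjusted p = 0.00472), a 3.56-fold ratio of mean FPKM. In WT iNKT the difference from WT DP was 1.09 ± 0.36 (adjusted p = 0.0594), and it passed without either library with the L-DKO iNKT label (0.0299). For the libraries with the L-DKO iNKT label against L-DKO DP it was 0.82 ± 0.29 (adjusted p = 0.0778), and it passed at 1.21 without library b (0.0294) and at 1.23 with libraries scaled to the same total (0.0221). None of the 5 steps between neighbours in the order of means passed, the largest being 0.56 between L-DKO DP and WT DP. One of them, WT iNKT against L-DKO DP, was 0.53 ± 0.36 (adjusted p = 0.342), where 21.7% of all genes were called. RefSeq places the start of Tspan31 2 bases inside the end of Cdk4, and Tspan31 was between 0 and 25.1 FPKM.

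Cdk6 encodes the second kinase (chromosome 5, 3341004 to 3531008) and followed neither the cyclins nor Cdk4. WT γδ cells were the highest, at 48.6 and 52.9 FPKM. Id3KO γδ had 20.2 and 15.2, WT DP 13.6 and 12.8, L-DKO DP 10.1 and 11.1, and WT iNKT 8.88. The libraries with the L-DKO iNKT label were at 12.03 and 1.65, a 7.28-fold gap within one group, whereas no other pair of libraries differed by over 1.33-fold for this gene. That one pair set the shared spread of the fit, and no difference in Cdk6 among the 8 main comparisons passed with all libraries. Nor did any step between neighbours (0.23 to 1.48), among them Id3KO γδ against WT DP (0.39 ± 0.61, adjusted p = 0.635, 41.2% of all genes called). Outside these, WT γδ was called higher than L-DKO DP (2.16 ± 0.61, adjusted p = 0.0478). The libraries with the L-DKO iNKT label were called lower than WT γδ (-3.14 ± 0.61, 0.0167). For WT γδ against WT DP the log2 difference was 1.87 ± 0.61 (adjusted p = 0.0643) with all libraries and 1.87 ± 0.19 (0.00133) without either library with the L-DKO iNKT label. For WT iNKT against WT γδ it was -2.39 ± 0.74 (adjusted p = 0.143), and -2.39 ± 0.23 (0.00463) without either. Fitted on the groups compared alone, WT γδ against WT DP passed (adjusted p = 0.00445). For WT iNKT against WT γδ that fit gave -2.39. It holds 1 WT iNKT library, so only the WT γδ pair gives a spread, and no p-value is given. The 2 libraries with the L-DKO iNKT label also differed in Cd8a (47.5 and 2.13 FPKM), Cd8b1 (52.6 and 3.61) and Cd4 (56.0 and 129), and in Ccnd2 and Cdk4 as given above, while Rag1 was alike (4.01 and 3.73). The part of these in the Cdk6 gap was not tested. The lncRNA genes Gm36470 and Gm29868 overlap Cdk6 by 2556 and 19218 bases.

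Cdk4 exceeded Cdk6 in each of the 11 libraries, by 2.32 to 5.74 times in DP, 2.35 to 6.22 times in γδ, 8.88 times in WT iNKT, and 10.5 and 44.9 times in the libraries with the L-DKO iNKT label. Cdk6 was 23.2% and 30.2% of the summed FPKM of both kinases in WT DP and 14.8% and 17.9% in L-DKO DP. It was 25.5% and 29.9% in WT γδ and 16.03% and 13.9% in Id3KO γδ. Its share was lower in the mutant than in the WT libraries of each population without overlap, though each ratio rests on 1 or 2 libraries a group and was not tested.

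Between WT populations 2 of the 4 genes were called in WT iNKT against WT DP, where 25.0% of all genes were, and 3 of 4 in WT γδ against WT DP, where 20.6% were. These comparisons share the WT DP libraries and are not independent. None of the 4 was called between WT iNKT and WT γδ, where 2.78% of genes were, with limma adjusted p of 0.143 to 0.868. Cdk6 alone was at an unadjusted p under 0.05, as were 2148 of 11815 over all genes. In the libraries with the L-DKO iNKT label against L-DKO DP 2 of 4 were called (24.3% of genes), and against Id3KO γδ 1 of 4 (3.98%).

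The design asks next how the loss of Id proteins alters each population. In Id3KO γδ cells Ccnd3 fell, from 217 and 229.9 FPKM to 95.8 and 92.1, a log2 difference of -1.24 ± 0.17 (n = 2 and 2, limma adjusted p = 0.00464), with a mean FPKM 2.38 times lower. It was the 1 of 4 members called, where 15.1% of all genes were. This call held whichever library was left out (adjusted p of 0.0046 to 0.0253) and under each scaling. Cdk6 went from 48.6 and 52.9 FPKM to 20.2 and 15.2, 2.87 times lower in mean FPKM and without overlap. Its log2 difference of -1.48 ± 0.61 did not pass with all libraries (adjusted p = 0.138, 95% interval -2.88 to -0.08). It passed without either library with the L-DKO iNKT label, neither of which enters the difference (-1.48 ± 0.19, adjusted p = 0.00439), and with the γδ groups alone (0.0386). Cdk4 was at -0.40 ± 0.29 (adjusted p = 0.38, interval -1.08 to 0.27) without overlap. Ccnd2 was at -0.05 ± 0.46 (adjusted p = 0.952, interval -1.13 to 1.02), with library a above and library b below both WT libraries.

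Markers of other cells moved with the γδ comparison. The 7 DP markers, measured in cells where Ccnd3 is highest, summed to 255 and 335 FPKM in WT γδ and to 119 and 160.1 in Id3KO γδ, against 2774 to 3148 in DP. Of these, Rag1 was at 84.9 and 112 FPKM in WT γδ and at 29.2 and 6.36 in Id3KO γδ, and Cd8a at 32.4 and 47.8 against 32.0 and 133. The 6 measured myeloid and dendritic markers summed to 190.3 and 228 FPKM in WT γδ and to 18.7 and 39.1 in Id3KO γδ, and none was listed at 0. Among the γδ markers, Sox13, a factor of immature γδ cells, was at 284 and 202 FPKM against 23.7 and 4.66. Tcrg-C4 was higher in Id3KO γδ (214 and 324 against 397 and 495). Tcrg-C1 was lower (247 and 389.7 against 213 and 216), and Tcrg-C2 overlapped (312 and 486 against 228 and 368). Among the iNKT markers, Zbtb16 was at 24.0 and 9.69 against 171 and 135, and Cxcr6 at 14.99 and 30.7 against 60.9 and 76.5. Il2rb (105 and 63.4 against 106 and 70.8) and Cd44 (15.8 and 20.6 against 20.1 and 8.00) overlapped. Their part in the fall of Ccnd3 was not tested.

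In DP cells none of the 4 genes was called between L-DKO and WT, where limma called 0.178% of all genes. None was at an unadjusted p under 0.05. Cdk4 was at 0.56 ± 0.29 (adjusted p = 0.526, 95% interval -0.11 to 1.24) with both L-DKO libraries above both WT libraries. Ccnd3 was at 0.22 ± 0.17 (adjusted p = 0.682, interval -0.18 to 0.61), Cdk6 at -0.29 ± 0.61 (0.909, -1.69 to 1.11) and Ccnd2 at -0.15 ± 0.46 (0.943, -1.23 to 0.92). The sign for Ccnd3 turned with libraries scaled to the same total (-0.16) and after quantile normalization (-0.37).

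In iNKT cells none of the 4 passed either, where 6.07% of all genes did and none of the members was at an unadjusted p under 0.05. Ccnd2 was at 46.6 and 101 FPKM in the libraries with the L-DKO iNKT label against 159.7 in WT iNKT, a log2 difference of -1.20 ± 0.57 (n = 2 and 1, adjusted p = 0.316, 95% interval -2.52 to 0.11). Cdk6 was at -0.75 ± 0.74 (adjusted p = 0.691), a mean of unlike libraries: -1.90 ± 0.26 (0.0128) without library a and 0.40 ± 0.26 (0.462) without library b. Ccnd3 was at -0.26 ± 0.21 (adjusted p = 0.605) and Cdk4 at 0.29 ± 0.36 (0.76). With libraries scaled to one total the median of all genes was 0.803, and Cdk4 was at 1.26 and passed (0.042), above that median, while Ccnd3 turned to 0.72 and Cdk6 to 0.07, both below it. WT iNKT had 1 library, whose spread is taken to be like that of the others.

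**Figure D3:**
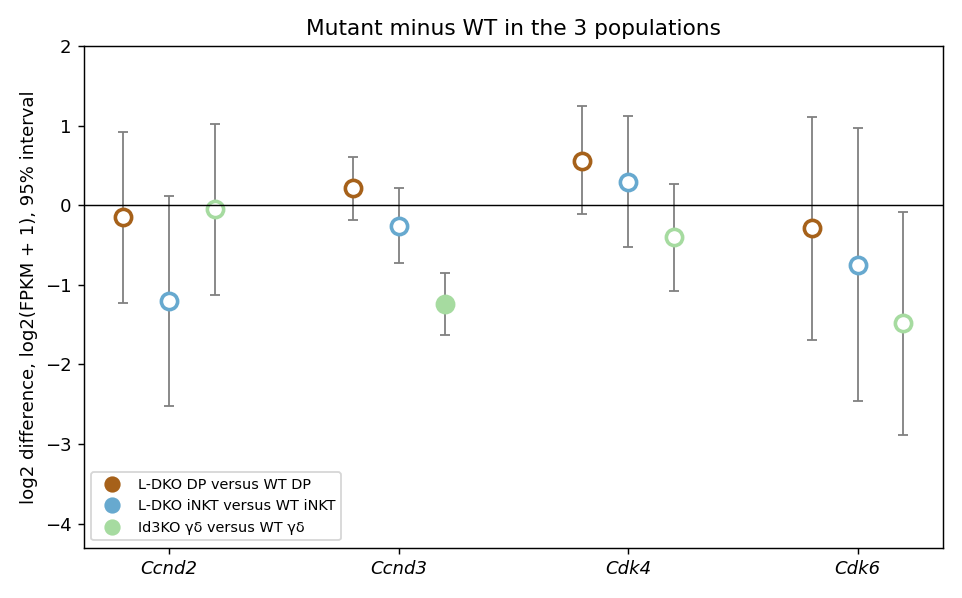
Mutant minus WT on the log2(FPKM + 1) scale (y) for the 4 genes in DP, iNKT and γδ cells. Bars are 95% intervals of the limma fit, and filled points passed at an adjusted p of 0.05. The one filled point is Ccnd3 in γδ cells, at -1.24.

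Whether the effects differed between populations was tested directly. The effect on Ccnd3 was lower in γδ cells than in DP cells, at a log2 difference of -1.46 ± 0.24 (limma adjusted p = 0.0243), the 1 of 4 members called where 2.52% of genes were. This difference kept its sign in each alternative, but was lost with libraries scaled to the same total (-0.95, adjusted p = 0.191), after quantile normalization (-0.99, 0.161), and without any 1 of the 4 DP or 2 WT γδ libraries or Id3KO γδ library b (0.0544 to 0.137). Between iNKT and γδ cells the effect on Ccnd3 differed by 0.99 ± 0.27 (adjusted p = 0.072), and it passed with libraries scaled to the same total (1.83, 0.0246). None of the members was called in that difference, where 6.60% of genes were, or in the difference between iNKT and DP cells, where 1.73% were. For Cdk6 the difference between iNKT and γδ cells was 0.73 ± 0.96 (adjusted p = 0.696), 1.88 without library b of those with the L-DKO iNKT label (0.0191) and -0.42 without library a (0.51).

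**Figure D4:**
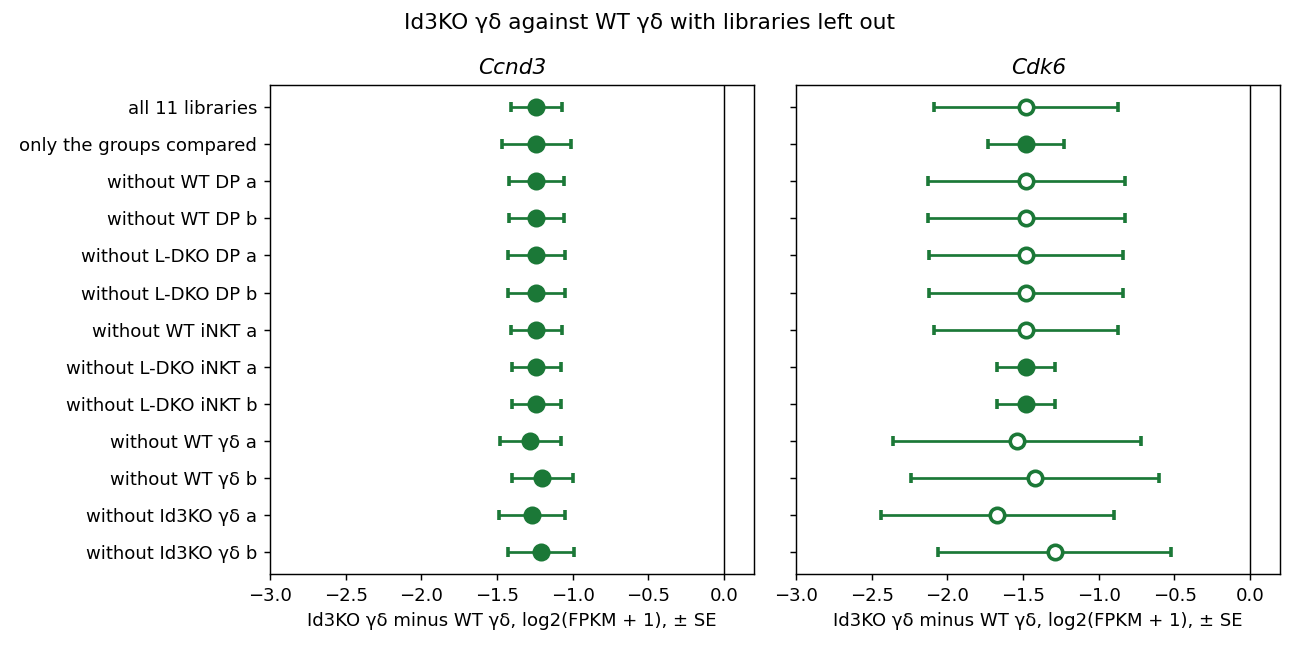
Id3KO γδ minus WT γδ on the log2(FPKM + 1) scale (x, bars are SE) for Ccnd3 and Cdk6 with all 11 libraries, with the γδ groups alone and without each library in turn (y). Filled points passed at an adjusted p of 0.05. Ccnd3 is filled throughout, at -1.28 to -1.20, and Cdk6 is filled with the γδ groups alone and without either library with the L-DKO iNKT label.

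The rest of the G1 pathway was read from a list of 36 genes, of which 31 were measured. In Id3KO γδ cells 1 of 31 rose and 4 fell, close to the 15.1% called over all genes, with a median log2 difference of -0.24 against -0.08 over all genes. Ccne1, the cyclin that activates CDK2 after CDK4 and CDK6 have acted, rose by 1.07 ± 0.20 (adjusted p = 0.0144), from 11.1 and 8.73 FPKM to 19.0 and 24.8. The E2F factor gene E2f2 fell, at a log2 difference of -1.25 ± 0.31 (adjusted p = 0.0344), the INK4 inhibitor gene Cdkn2d at -0.87 ± 0.22 (0.0393), and the pocket protein genes Rbl1 at -0.87 ± 0.22 (0.035) and Rbl2 at -0.68 ± 0.18 (0.0433). Each of the 5 was lost with the γδ groups fitted alone (0.082 to 0.169), the 4 falls also with libraries scaled to the same total (0.0559 to 0.184), and each in 2 to 8 of 11 fits that left out a library (up to 0.173).

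In iNKT cells 2 of 31 rose and 0 fell, close to the 6.07% called over all genes. At an unadjusted p under 0.05 there were 6 of 31, and 2214 of 11815 over all genes. Markers moved with this comparison too. From WT iNKT to the libraries with the L-DKO iNKT label the iNKT markers went from 699 to 117 and 113 FPKM, the γδ markers from 498 to 12.1 and 33.3, and the 6 measured myeloid and dendritic markers from 102 to 22.4 and 30.3. Their part in the changes below was not tested. E2f2 rose by 2.03 ± 0.38 (adjusted p = 0.0229), from 8.98 FPKM to 38.1 and 41.3, and Ccne1 by 1.46 ± 0.25 (0.0162), from 6.93 FPKM to 21.8 and 19.8. Both were lost with the iNKT groups alone (0.159 and 0.222), E2f2 in 4 of 10 fits that left out a library (up to 0.0618) and Ccne1 in 1 (0.0521). In DP cells 0 of 31 were called in either direction, with 4 at an unadjusted p under 0.05, against 1333 of 11815 over all genes. E2f2 was at 126 and 119 FPKM in L-DKO DP and at 67.9 and 60.1 in WT DP, without overlap. Ccne1 was at 14.8 and 12.7 FPKM in L-DKO DP and at 8.89 and 7.53 in WT DP, also without overlap. Its log2 difference there was 0.68 ± 0.20 and did not pass (limma adjusted p = 0.286). Ccne1 was thus called higher in both the Id3KO γδ and the libraries with the L-DKO iNKT label, in comparisons that share no libraries but share the spread of the fit. E2f2 was called in opposite directions, and its difference between the iNKT and γδ effects was 3.28 ± 0.49 (adjusted p = 0.0119).

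Between WT populations the inhibitor gene Cdkn1b was higher in DP than in both other populations, as Ccnd3 was. Cdkn1b, which encodes p27, was at 107 and 101 FPKM in WT DP, 45.2 and 47.7 in WT γδ and 45.4 in WT iNKT. It was lower in WT γδ than in WT DP, at a log2 difference of -1.15 ± 0.19 (adjusted p = 0.00509) and in the libraries with the L-DKO iNKT label than in L-DKO DP at -1.43 ± 0.19 (0.00153), both in every fit that left out a library, and in WT iNKT than in WT DP at -1.18 ± 0.23 (0.00802). Cdkn2d was lower in WT iNKT than in WT DP, at a log2 difference of -1.64 ± 0.28 (adjusted p = 0.00448), which was lost with only those groups fitted (0.0523). In WT γδ against WT DP Cdkn2d was at -0.52 ± 0.22 and did not pass (0.138). E2f6, a repressor E2F without a pocket protein site, was higher in WT γδ by 1.37 ± 0.22 (0.0047) and in WT iNKT by 1.30 ± 0.27 (0.0103), the latter lost with libraries scaled to the same total (0.229) and with only those groups fitted (0.0667). E2f2 was lower in WT iNKT, at a log2 difference of -2.70 ± 0.38 (0.00222) and E2f7, another repressor, in WT γδ at -1.65 ± 0.37 (0.0173), which 3 of 11 fits that left out a library did not call (up to 0.103). E2f2 was also lower in WT γδ than in WT DP, at -1.30 ± 0.31 (0.0235), which 4 of 11 fits that left out a library did not call. E2f7 was also lower in WT iNKT than in WT DP, at -1.70 ± 0.45 (0.0282), which 1 of 10 such fits did not call. In all, 1 of 31 was called higher and 7 lower in WT iNKT against WT DP, close to the 25.0% of all genes called there, and 2 and 3 in WT γδ against WT DP, below the 20.6% of all genes. In the libraries with the L-DKO iNKT label against L-DKO DP 1 was called higher and 10 lower, where 24.3% of all genes were called. Between WT iNKT and WT γδ limma called 0, against 2.78% of all genes. At an unadjusted p under 0.05 there were 7 of 31, and 2148 of 11815 over all genes.

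**Figure D5:**
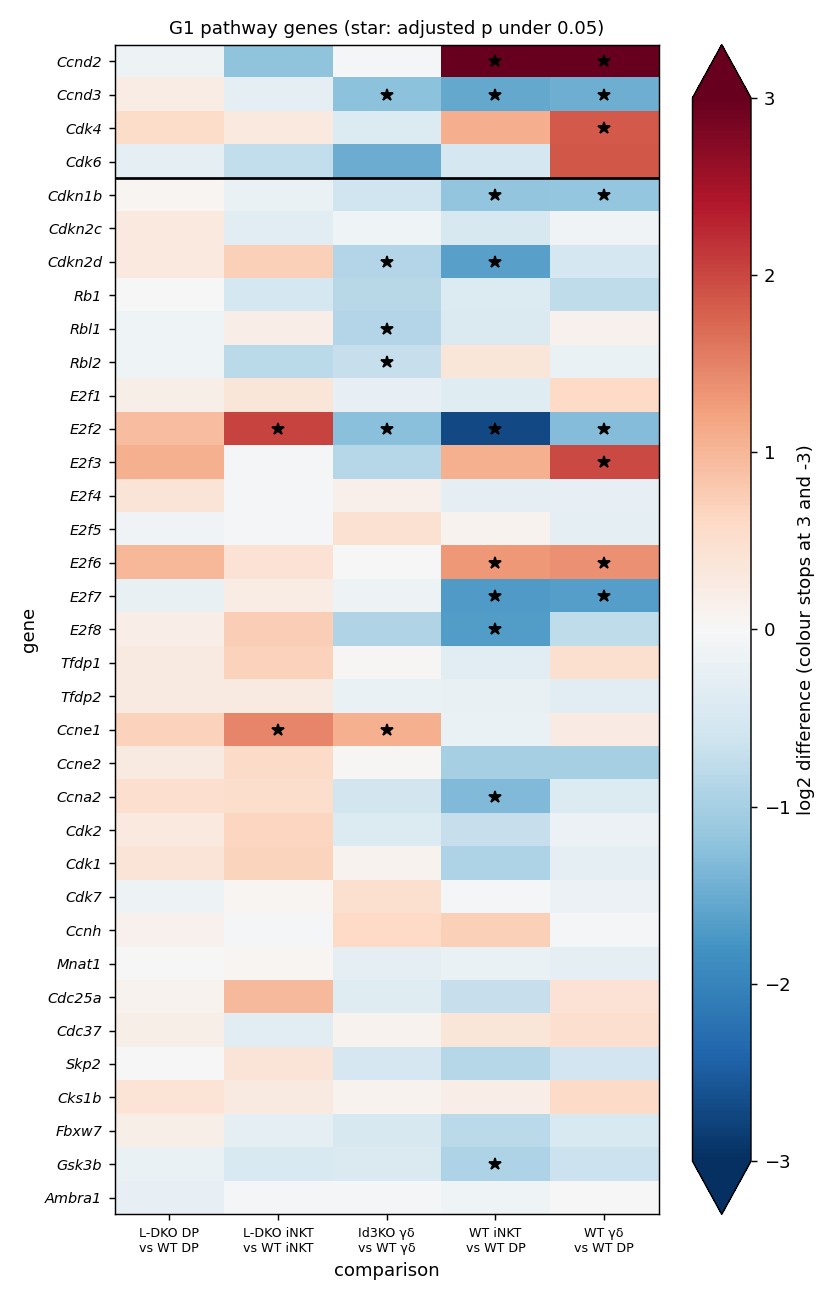
Log2 differences (colour, stopped at 3 and -3) of the 4 members, above the line, and of 31 other G1 pathway genes (y) in 5 comparisons (x), with a star where the limma adjusted p was under 0.05. Ccnd2 and Ccnd3 carry stars of opposite colour in both comparisons with WT DP, and E2f2 is red in iNKT and blue in γδ cells.

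Genes of cycling cells were read beside the members. The 25 genes, such as Mki67 and the Mcm helicase subunits, summed to 879 and 1103 FPKM in WT DP, 1160.4 and 1225 in L-DKO DP, 630.3 in WT iNKT, 728 and 973 in the libraries with the L-DKO iNKT label, 1039 and 1128 in WT γδ, and 624 and 942 in Id3KO γδ. Taken over both genotypes, the sums of DP cells overlapped those of iNKT and of γδ cells, while Ccnd2 and Ccnd3 did not. Within WT and within L-DKO the iNKT sums were below the DP sums, and WT γδ overlapped WT DP. The part of cycling cells in the Ccnd2 and Ccnd3 differences was not tested. In the Id3KO γδ comparison 23 of 25 had negative values with a median of -0.57 against -0.08 over all genes, and limma called 0. At an unadjusted p under 0.05 there were 6 of 25, and 3753 of 11815 over all genes. In iNKT cells 21 of 25 were positive (median 0.41) and in DP cells 23 of 25 (median 0.32), with 0 called in each. At an unadjusted p under 0.05 there were 2 and 0, against 2214 and 1333 of 11815 over all genes. In WT γδ against WT DP 4 were called higher, Mcm3, Mcm4, Mcm5 and Mcm6 (0.76 to 1.14), and Gins2 lower (-1.04), so that 5 of 25 were called where 20.6% of all genes were. The 4 Mcm calls were lost with libraries scaled to the same total (0.18 to 0.56, adjusted p of 0.149 to 0.581). Of 11 fits that left out a library, 5 did not call Mcm3 (up to 0.186), 6 Mcm4 (up to 0.184), 3 Mcm5 (up to 0.11), 1 Mcm6 (0.0514) and 1 Gins2 (0.0718). Mcm3 and Mcm4 were also lost with only those groups fitted (0.066 and 0.0784). In WT iNKT against WT DP 6 of 25 were called lower, close to the 25.0% called over all genes, among them Mki67 (-1.23, adjusted p = 0.035) and Bub1 (-1.36, 0.0243). Of 10 fits that left out a library, 6 did not call Mki67 (up to 0.124) and 2 did not call Bub1 (up to 0.0832), and Mki67 was lost with only those groups fitted (0.0771).

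Over the 11 libraries Ccnd2 had a Pearson correlation of -0.888 with Ccnd3, 0.822 with Cdk4 and 0.125 with Cdk6 on the log2 scale. The libraries share a tissue, but DP, iNKT and γδ cells were sorted by different gates. The genes most like each member were taken from 7549 with a group mean of at least 10 FPKM. They were Lfng, Jak3 and Cnn2 for Ccnd2 (each 0.991), of which Jak3 encodes the kinase of the common γ chain receptors and Lfng a Notch-modifying enzyme. For Ccnd3 they were Edc3 (0.993), Gpatch2 (0.991) and the noncoding RNA gene Nron (0.989), and for Cdk4 Xpo5 (0.965), the exporter of miRNA precursors, Cdk2ap1 (0.962) and Pebp1 (0.958). For Cdk6 they included Cep68 (0.910) and Prdx2 (0.908), the latter an antioxidant peroxiredoxin at 74.6 FPKM in WT γδ, 50.1 in WT DP and 47.6 in WT iNKT. With 6 groups these values describe the order of groups and carry no test.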

How the data were processed

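RNA was depleted of rRNA with RNase H, built into stranded paired-end libraries and sequenced on a HiSeq by the authors. Reads were handled, by the submitters' notes, with Cufflinks 2.2.0, TopHat2 2.0.9 and Trimmomatic 0.32 on mm10/GRCm38. The sources used here give neither the annotation nor whether counting used strand. The file header says FPKM, but the deposited values are log2 values from 0 to 16.65 and were read as log2(FPKM + 1). Of 12 labelled samples 11 had a column; 1 WT iNKT library, removed by the authors for low quality, is not analysed here. Since columns of a group share a name, a and b mark only their place in the table. The 5 columns of author means and 3 of author fold changes, ratios of mutant to WT means, were not used. The 1 symbol with 2 entries kept both.

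limma 3.58.1 (R 4.3.3) was fitted on log2(FPKM + 1) with a pseudocount of 1 and a mean per group, 6 groups in 1 fit, with 5 residual degrees of freedom, to which moderation added 2.87. Tests were 2-sided, adjusted by Benjamini-Hochberg over 11815 genes at 0.05. Intervals are 95% intervals of single comparisons. The script was tested on simulated data. FPKM keeps no read counts, so depth is unknown and no counting interval is given, and an exact 0 may be a failed estimate. Alternatives were a pseudocount of 0.1, a filter at a mean of 1 FPKM, other scalings, fitting only the groups compared and leaving out each library. The scaling that leaves out predicted genes, receptor segments and small RNA was chosen after seeing the data. Named were the 4 members, up to 6 called genes per list and comparison with the largest differences, and the 3 genes most like each member (leaving out predicted genes, small RNA, ribosomal pseudogenes and receptor segments); E2f2, Ccne1 and Cdkn1b were also named where they fell outside this rule. Members and lists were chosen with earlier results of these data known. Of the genes this rule takes, 1 is not reported here.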

Additional observations from a re-analysis of the deposited data

Results flagged for a closer look

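Direct tests of the difference between mutant effects singled out 1 member and 2 other G1 pathway genes; no group had enough libraries to look for outlying ones. The effect on Ccnd3 in γδ minus that in DP cells was -1.46 ± 0.24 on the log2 scale (limma adjusted p = 0.0243), with both Id3KO γδ libraries below both WT γδ libraries and both L-DKO DP libraries above both WT DP libraries. It was lost in 7 of 11 fits that left out a library (up to 0.137), with libraries scaled to the same total (-0.95, 0.191) and after quantile normalization (-0.99, 0.161), and under these scalings the DP effect on Ccnd3 turned to -0.16 and -0.37.

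For E2f2 the effect in iNKT minus that in γδ cells was 3.28 ± 0.49 (limma adjusted p = 0.0119), a call kept whichever library was left out. The effect on E2f2 in γδ minus that in DP cells was -2.19 ± 0.44 (adjusted p = 0.0482) and was lost in 9 of 11 fits that left out a library (up to 0.182), with libraries scaled to the same total (0.118), after quantile normalization (0.0605) and with a pseudocount of 0.1 (0.0736). For Cdkn2d the effect in iNKT minus that in γδ cells was 1.57 ± 0.36 (adjusted p = 0.0407), lost in 9 of 10 such fits (up to 0.0843) and with a pseudocount of 0.1 (0.0542).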

How the results depend on the processing

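No paired analysis was possible because the columns carry no replicate numbers, and leaving out WT iNKT gives no value for its comparisons. With libraries scaled to the same total Ccnd2 was at 0.07 (Id3KO γδ against WT γδ), 0.24 (L-DKO iNKT against Id3KO γδ), 0.14 (iNKT minus DP), Ccnd3 was at -0.16 (L-DKO DP against WT DP), 0.72 (L-DKO iNKT against WT iNKT), 1.83 (iNKT minus γδ, adjusted p = 0.0246), 0.88 (iNKT minus DP), -0.95 (γδ minus DP, adjusted p = 0.191), Cdk4 was at 1.26 (L-DKO iNKT against WT iNKT, adjusted p = 0.042), 1.23 (L-DKO iNKT against L-DKO DP, adjusted p = 0.0221), 0.46 (L-DKO iNKT against Id3KO γδ), 1.07 (iNKT minus DP), -0.03 (WT iNKT against L-DKO DP), Cdk6 was at 0.07 (L-DKO iNKT against WT iNKT), 0.72 (iNKT minus DP), -0.06 (Id3KO γδ against WT DP). The same setting called 3627 genes (L-DKO iNKT against WT iNKT), 4778 genes (WT iNKT against WT DP), 173 genes (WT iNKT against WT γδ), 939 genes (L-DKO iNKT against Id3KO γδ), 1249 genes (iNKT minus γδ), 3833 genes (iNKT minus DP). It moved the median of all genes to between -0.729 and 1.089, from -0.120 to 0.109. After quantile normalization Ccnd3 was at -0.37 (L-DKO DP against WT DP), 0.02 (L-DKO iNKT against WT iNKT), 1.01 (L-DKO iNKT against Id3KO γδ, adjusted p = 0.0535), 0.40 (iNKT minus DP), -0.99 (γδ minus DP, adjusted p = 0.161), Cdk4 was at 0.04 (L-DKO iNKT against Id3KO γδ). The same setting gave a log2 ratio of 8.79 (Ccnd3 over Ccnd2, L-DKO DP), 0.32 (Ccnd3 over Ccnd2, WT iNKT), -3.13 (Cdk6 over Cdk4, WT iNKT). With only the groups compared Ccnd3 was at 0.90 (L-DKO iNKT against Id3KO γδ, adjusted p = 0.229), Cdk6 was at -1.48 (Id3KO γδ against WT γδ, adjusted p = 0.0386), 1.87 (WT γδ against WT DP, adjusted p = 0.00445), -2.39 (WT iNKT against WT γδ, with 1 WT iNKT library). The same setting called 2 genes (L-DKO iNKT against WT iNKT), 636 genes (Id3KO γδ against WT γδ), 1647 genes (WT iNKT against WT DP), 976 genes (WT iNKT against WT γδ), 46 genes (L-DKO iNKT against Id3KO γδ). Scaled without small RNA, segments and predicted genes Ccnd3 was at 1.37 (iNKT minus γδ, adjusted p = 0.0312), Cdk4 was at 0.11 (L-DKO iNKT against Id3KO γδ), 0.09 (iNKT minus DP). With a pseudocount of 0.1 limma called 33 genes (L-DKO DP against WT DP), 217 genes (WT iNKT against WT γδ), 129 genes (iNKT minus DP). Leaving out 1 library at a time turned a sign, changed a call or moved a count past 1.5 times in these comparisons. Ccnd2 ranged over -0.35 to 0.05 (L-DKO DP against WT DP), -0.63 to 0.53 (Id3KO γδ against WT γδ), -0.84 to 0.32 (L-DKO iNKT against Id3KO γδ), -0.48 to 0.68 (γδ minus DP). Ccnd3 ranged over 0.76 to 1.04 (L-DKO iNKT against Id3KO γδ), -1.54 to -1.37 (γδ minus DP). Cdk4 ranged over -0.09 to 0.68 (L-DKO iNKT against WT iNKT), 0.80 to 1.38 (WT iNKT against WT DP), 0.44 to 1.21 (L-DKO iNKT against L-DKO DP), -0.43 to 0.34 (L-DKO iNKT against Id3KO γδ), -0.65 to 0.12 (iNKT minus DP). Cdk6 ranged over -1.90 to 0.40 (L-DKO iNKT against WT iNKT), -1.67 to -1.29 (Id3KO γδ against WT γδ), 1.80 to 1.93 (WT γδ against WT DP), -2.45 to -2.33 (WT iNKT against WT γδ), -2.13 to 0.17 (L-DKO iNKT against L-DKO DP), -2.80 to -0.51 (L-DKO iNKT against Id3KO γδ), -0.42 to 1.88 (iNKT minus γδ), -1.60 to 0.69 (iNKT minus DP). The count of calls ranged over 3 to 29 (L-DKO DP against WT DP), 393 to 853 (L-DKO iNKT against WT iNKT), 555 to 1921 (Id3KO γδ against WT γδ), 1131 to 2570 (WT γδ against WT DP), 70 to 458 (WT iNKT against WT γδ), 1258 to 2950 (L-DKO iNKT against L-DKO DP), 261 to 470 (L-DKO iNKT against Id3KO γδ), 372 to 909 (iNKT minus γδ), 2 to 400 (iNKT minus DP), 51 to 562 (γδ minus DP). Of all alternative values of the members' differences, 708 kept direction and side of the threshold, 20 became called, 18 lost the call and 36 turned direction. The cause was not tested, except that fits of fewer libraries have fewer degrees of freedom. Depth limits could not be assessed without counts.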

Other observations

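Other genes of the G1 pathway and of cycling cells also differed between the libraries with the L-DKO iNKT label and L-DKO DP, where 24.3% of all genes were called. Fbxw7, which encodes the ubiquitin ligase subunit that targets cyclin E, was lower in the libraries with the L-DKO iNKT label than in L-DKO DP, at a log2 difference of -1.25 ± 0.22 (limma adjusted p = 0.00583), at 7.26 against 18.6 FPKM, and was called in each of 11 fits that left out a library but not with libraries scaled to the same total (-0.89, 0.0598). Gins2, a subunit of the replicative helicase, was at -1.66 ± 0.21 (0.00136), lower in the same comparison, and likewise called in each fit. Ccna2, the cyclin of S phase, was at -1.32 ± 0.33 (0.0241), lower again, and lost its call in 3 of those fits (up to 0.116), and also under that scaling (0.0546). Rb1, which encodes the pocket protein that these kinases phosphorylate, was at 59.2 ± 7.82 FPKM (SD, n = 2) in WT DP, 35.3 ± 10.8 in WT γδ and 19.6 ± 6.86 in Id3KO γδ. Neither difference in Rb1 passed, at -0.76 ± 0.28 for WT γδ against WT DP (limma adjusted p = 0.0955) and -0.83 ± 0.28 for Id3KO γδ against WT γδ (0.0885).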
